A study of Mus musculus with 24 samples.

Results

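The 10 genes described here encode enzymes and partners that drive cells into and through division. They are the kinases Cdk1, Plk1, Aurka, Aurkb, Aurkc and Nek2, the phosphatases Cdc25a, Cdc25c and Cdkn3, and survivin, encoded by Birc5. They were chosen by exact symbol, and each has 1 row among the 52323 rows of both deposited tables. Earlier results of these data were known at that choice, so counts of them beside all genes are a description. RNA of testis cells from wild-type NMRI mice was measured in 24 libraries, 12 of total RNA and 12 of nascent RNA. All mice had their spermatogenesis synchronised with WIN18,446 and retinoic acid, received 2 mg of the uridine analog EU at 24 days after birth, and gave cells 3 hours later. Cells were sorted by DNA content (ploidy), and only the nascent libraries were built from captured EU-labelled RNA. Each assay has 3 libraries of spermatogonia from 2 animals, 1 library of preleptotene spermatocytes, 4 libraries of leptotene spermatocytes from 3 animals, and 4 libraries of pachytene spermatocytes from 2 animals. By the labels the total and nascent assays used different animals, and some animals gave cells of more than 1 stage within an assay. The animal numbers follow the same pattern over the libraries of both assays, so total and nascent libraries of the same number may be paired, which was not tested.

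Spermatogonia divide by mitosis, whereas spermatocytes pass through a long meiotic prophase (preleptotene, leptotene, pachytene) before the meiotic divisions. Cdk1 with its cyclin triggers division, Cdc25 phosphatases activate it, and Polo-like and Aurora kinases build and correct the spindle. In the testis many messages needed for the meiotic divisions are known to be made in pachytene, well before the divisions themselves.

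Every value is in FPKM (fragments per kilobase of transcript, scaled to the mapped fragments of each library), so levels can be compared between genes per length. Taking the most frequent low value as 1 read implied a depth of 7.07 to 15.81 M reads in total RNA and 5.07 to 10.11 M in nascent RNA. No more than 42.1% of the low values in any library were within 0.05 of a whole read, so these depths are a rough guide. At those depths 1 FPKM over 1500 bases is 10.6 to 23.7 reads in total RNA and 7.6 to 15.2 in nascent RNA. Spike-in RNA took 2.49 to 8.19% of the summed FPKM in total RNA and 5.01 to 76.5% in nascent RNA, so the nascent FPKM of every gene moves with that share. Leptotene library 2 stood apart in both assays. The summed level of 8 pachytene marker genes was 1055 FPKM in its total RNA, against 22.6 to 44.0 FPKM in the other leptotene libraries and 1077 to 1655 FPKM in pachytene. In nascent RNA the sums were 259 FPKM against 3.0 to 3.29 FPKM and 277 to 542 FPKM. Leptotene library 3 had the highest summed level of 7 spermatogonial markers among leptotene libraries, 113 FPKM in total RNA, against 128 to 174 FPKM in spermatogonia. The preleptotene library had 109 FPKM and the other leptotene libraries 28.1 to 94.0 FPKM, so it stood little apart there. In nascent RNA leptotene library 3 had 91.2 FPKM against 24.9 to 43.1 FPKM in the other leptotene libraries. Spermatogonia libraries also carried markers of somatic cells, with 121 to 168 FPKM over 7 Sertoli cell genes in total RNA, against 7.80 to 27.5 FPKM in leptotene and 1.5 to 3.61 FPKM in pachytene. Over 5 Leydig cell genes the total RNA sums were 171 to 417 FPKM in spermatogonia and 4.48 to 7.76 FPKM in pachytene. The part of these markers in the differences from spermatogonia was not tested. In such bulk samples a change in the share of a cell type cannot be told apart from a change in RNA per cell.

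The promoters of 6 of the genes, some that rose in pachytene and some that did not, are shown to compare letters that are known from genes of the division programme, which 5 of them hold and Birc5 does not. Each is the RefSeq window (build GRCm38.p6) from 250 bases before to 50 bases after the start site, read 5′ to 3′ on the strand of the gene. Capitals mark 2 motifs on either strand: the cell cycle genes homology region or CHR (TTTGAA or TTCGAA, read TTCAAA on the other strand) and the CCAAT box (CCAAT, read ATTGG on the other strand). The windows lie at chr2:172370521-172370820 (minus strand) for Aurka, chr1:191821223-191821522 (plus strand) for Nek2, chr14:46760291-46760590 (plus strand) for Cdkn3, chr11:117848987-117849286 (plus strand) for Birc5, chr10:69352863-69353162 (minus strand) for Cdk1 and chr7:122159185-122159484 (plus strand) for Plk1.
Aurka: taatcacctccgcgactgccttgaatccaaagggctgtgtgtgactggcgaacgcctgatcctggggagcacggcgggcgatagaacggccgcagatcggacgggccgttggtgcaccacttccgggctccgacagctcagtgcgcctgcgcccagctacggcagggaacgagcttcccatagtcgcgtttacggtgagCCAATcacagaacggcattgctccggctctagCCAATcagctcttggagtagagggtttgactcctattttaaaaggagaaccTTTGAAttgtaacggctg
Nek2: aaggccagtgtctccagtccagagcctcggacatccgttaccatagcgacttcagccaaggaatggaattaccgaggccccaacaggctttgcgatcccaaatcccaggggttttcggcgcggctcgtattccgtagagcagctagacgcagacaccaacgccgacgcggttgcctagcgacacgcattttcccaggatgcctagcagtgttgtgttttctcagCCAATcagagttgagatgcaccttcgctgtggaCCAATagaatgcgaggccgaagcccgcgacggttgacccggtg
Cdkn3: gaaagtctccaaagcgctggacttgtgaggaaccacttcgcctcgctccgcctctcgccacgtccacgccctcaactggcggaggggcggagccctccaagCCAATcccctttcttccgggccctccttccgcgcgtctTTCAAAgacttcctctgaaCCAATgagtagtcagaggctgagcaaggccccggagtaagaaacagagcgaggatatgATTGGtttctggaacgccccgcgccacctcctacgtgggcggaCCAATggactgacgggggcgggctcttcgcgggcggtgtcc
Birc5: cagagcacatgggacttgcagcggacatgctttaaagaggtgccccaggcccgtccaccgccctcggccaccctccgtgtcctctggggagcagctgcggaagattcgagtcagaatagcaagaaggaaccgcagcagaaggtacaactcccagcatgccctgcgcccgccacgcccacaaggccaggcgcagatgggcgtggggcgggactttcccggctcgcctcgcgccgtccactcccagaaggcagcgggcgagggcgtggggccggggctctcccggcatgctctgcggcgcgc
Cdk1: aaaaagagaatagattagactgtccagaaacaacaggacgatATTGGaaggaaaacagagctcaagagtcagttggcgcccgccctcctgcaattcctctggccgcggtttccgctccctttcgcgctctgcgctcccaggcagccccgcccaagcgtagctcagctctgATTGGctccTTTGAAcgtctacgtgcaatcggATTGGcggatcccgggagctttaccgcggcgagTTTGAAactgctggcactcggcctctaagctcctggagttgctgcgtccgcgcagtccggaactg
Plk1: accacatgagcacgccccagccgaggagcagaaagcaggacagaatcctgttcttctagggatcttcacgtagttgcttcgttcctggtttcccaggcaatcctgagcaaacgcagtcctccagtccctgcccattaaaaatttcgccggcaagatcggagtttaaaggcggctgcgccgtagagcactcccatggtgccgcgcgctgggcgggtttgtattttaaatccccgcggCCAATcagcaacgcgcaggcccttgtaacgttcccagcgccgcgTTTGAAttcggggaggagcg

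The RefSeq table held windows for 8 of the 10 genes, without Aurkb and Cdc25c. A CHR stood in 4 of these 8 windows, those of Cdk1, Plk1, Aurka and Cdkn3, against 19.2% of all 32851 promoter windows. A CCAAT box stood in 7 of 8, in all but Birc5, against 37.4% of all windows. The pair of motifs together was in 7.5% of all windows. Cdk1 had a CHR at positions -71 and -15 relative to the start site, Plk1 at 31, Aurka at 33 and Cdkn3 at -111. Nek2 had no CHR in the window but CCAAT boxes at -26 and 8. MYB-type letters (CAACNG or TAACNG, either strand) were found in 4 of 8 windows and in 49.7% of all windows. E2F-type letters (TTTCCCGC, TTTGGCGC or TTTCGCGC, either strand) were in the windows of Cdk1 and Cdc25a and in 1.8% of all windows. Genes that rose in pachytene and genes that did not both carried the CHR, and a match of letters is not a measured binding site.

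In total RNA 4 of the 10 genes were called higher in pachytene than in leptotene: Aurka, Nek2, Birc5 and Aurkc. Aurkc was tested only because of its pachytene level. None fell. Of all genes tested 22.4% were called higher and 17.7% lower in this comparison. Against spermatogonia 5 genes were higher in pachytene, the same 4 with Cdkn3 added, and Cdc25c was lower. Cdc25c was tested only because of its level in earlier stages. The shares of all genes tested were 23.1% higher and 29.7% lower. Cdkn3 was the 1 gene of the 10 that was already higher in leptotene than in spermatogonia, where 0.286% of all genes tested were called higher and 9.52% lower. Called here means an adjusted p under 0.05 by limma on log2(FPKM + 1), with animals as replicates and Benjamini-Hochberg adjustment over all genes. On that scale differences of genes near or under 1 FPKM are understated. In total RNA 5 genes were thus called higher in pachytene than in spermatogonia, with Aurkc given as a description. Cdkn3 among them had no call from leptotene to pachytene. Cdc25c was called lower, which is likewise given as a description. Cdk1, Plk1, Aurkb and Cdc25a were not called, which does not show equal levels. A higher level does not show that a message is stored, so the working description of the set as messages stored in pachytene was not tested here.

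**Figure D1:**
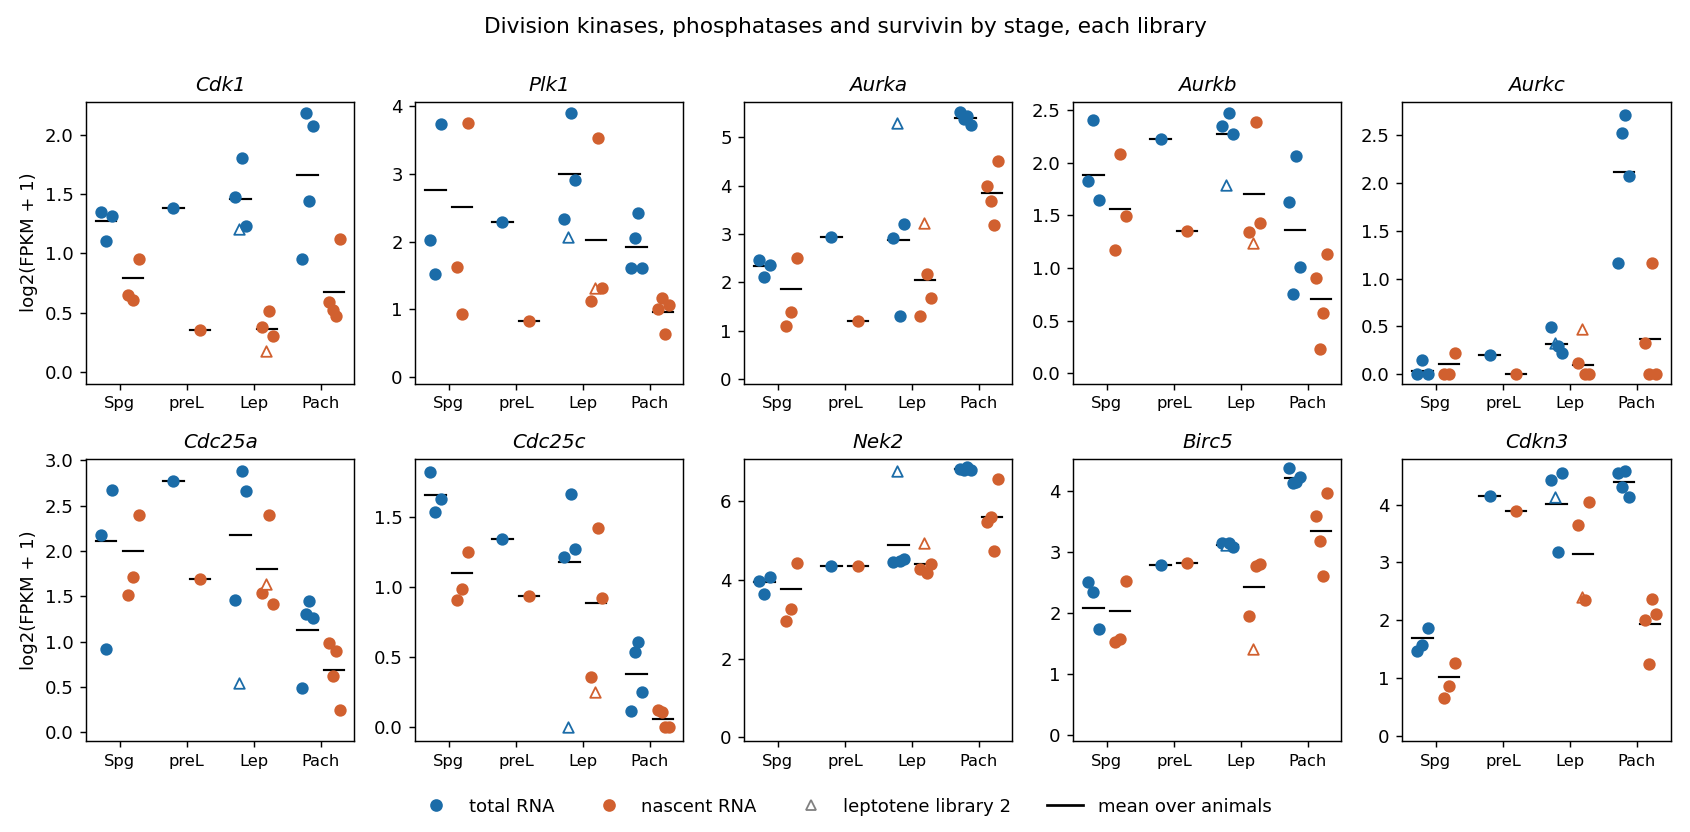
Level of each gene as log2(FPKM + 1) in every library of spermatogonia (Spg), preleptotene (preL), leptotene (Lep) and pachytene (Pach) cells, total RNA in blue and nascent RNA in orange, with bars at the mean over animals. Open triangles are leptotene library 2, which lies with the pachytene libraries for Aurka and Nek2 in total RNA, and the vertical scale differs between genes.

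Aurka encodes Aurora A, the kinase of centrosomes and spindle poles. In total RNA it stood at 4.52, 3.33 and 4.16 FPKM in the 3 spermatogonia libraries and 6.70 FPKM in preleptotene. The leptotene libraries 1 to 4 had 6.56, 38.2, 1.47 and 8.19 FPKM, and the pachytene libraries had 44.9, 40.4, 42.5 and 37.4 FPKM. Leptotene library 2 alone reached the pachytene range, and all 4 pachytene libraries lay above the spermatogonia libraries. Averaged per animal, the level was 10.7 ± 10.7 FPKM (SD, n = 3 animals) in leptotene and 41.3 ± 3.39 FPKM (SD, n = 2 animals) in pachytene. The rise from leptotene was 2.53 ± 0.69 on the log2 scale (SE, limma adjusted p = 0.0193) and that from spermatogonia 3.07 ± 0.75 (adjusted p = 0.00862). Without leptotene library 2 the rise from leptotene was 2.93 ± 0.53 (adjusted p = 0.00313).

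Nek2 encodes a kinase that separates the duplicated centrosomes, and by mean it was the most abundant of the 10 in total RNA at every stage. It had 14.7, 11.5 and 15.9 FPKM in spermatogonia, 19.5 FPKM in preleptotene, 20.8, 108, 21.5 and 22.1 FPKM in leptotene, and 112, 109.8, 116 and 109.7 FPKM in pachytene. Again leptotene library 2 sat just under the pachytene libraries while the other 3 leptotene libraries were close to each other. The rise from leptotene to pachytene was 1.94 ± 0.41 (adjusted p = 0.00715), and 2.33 ± 0.20 (adjusted p = 0.000108) without that library. An annotated antisense gene, Gm38037, overlaps Nek2 exons, and the use of strand in counting is not stated, so reads of the pair may have been mixed. Its own level was 4.76 to 7.16 FPKM in pachytene total RNA, far under that of Nek2.

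Birc5 encodes survivin, a subunit of the chromosomal passenger complex that carries Aurora B. Its total RNA was highest in pachytene. It had 4.71, 4.07 and 2.33 FPKM in spermatogonia, 5.92 FPKM in preleptotene, 7.95, 7.74, 7.85 and 7.48 FPKM in leptotene, and 19.8, 16.5, 16.8 and 17.9 FPKM in pachytene. No library of one of these 3 replicated stages overlapped another stage, and leptotene library 2 was here like the other leptotene libraries. The rise from leptotene was 1.10 ± 0.32 (adjusted p = 0.0251) and from spermatogonia 2.15 ± 0.35 (adjusted p = 0.00161). With the animal as a block the call was lost in the first, 1.04 ± 0.68 (adjusted p = 0.290), and in the second, 2.07 ± 0.83 (adjusted p = 0.0711). The difference between leptotene and spermatogonia was not called (1.04, adjusted p = 0.0856). Without leptotene library 2 it was called, at 1.05 ± 0.26 (adjusted p = 0.0409), where 0.790% of all genes were called higher.

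Aurkc encodes Aurora C, the meiotic member of the Aurora family. In total RNA it was listed at 0, 0.107 and 0 FPKM in spermatogonia, 0.151 FPKM in preleptotene, 0.406, 0.257, 0.230 and 0.169 FPKM in leptotene, and 1.25, 4.75, 5.58 and 3.22 FPKM in pachytene. Every pachytene library was above every earlier library. Aurkc reached 1 FPKM in no other stage, so it passed the filter on low values only through pachytene, where it is high. Its calls, with differences of 1.81 ± 0.21 from leptotene and 2.09 ± 0.23 from spermatogonia, are therefore given as a description. Aurkc has 10 annotated copies with 93.3 to 99.2% identity over 515 to 1405 bases, so its counting is uncertain. The nearest, Gm12463, was at 12.7 to 23.6 FPKM in pachytene total RNA, above Aurkc itself, and at 0.987 to 23.2 FPKM in leptotene.

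Cdkn3 encodes a phosphatase that removes the activating phosphate of cyclin-dependent kinases. Its total RNA was 1.77, 1.95 and 2.64 FPKM in spermatogonia and 16.8 FPKM in the preleptotene library. It then stayed high, at 20.7, 16.5, 8.04 and 22.5 FPKM in leptotene and 22.5, 18.9, 23.1 and 16.6 FPKM in pachytene. All spermatocyte libraries lay above all spermatogonia libraries, and the lowest of them was leptotene library 3. The rise from spermatogonia to leptotene was 2.32 ± 0.44 (adjusted p = 0.0120), with no call from leptotene to pachytene, 0.39 ± 0.44 (adjusted p = 0.499).

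The other Aurora kinase of mitosis, Aurora B (Aurkb), did not share the rise. It had 2.54, 4.29 and 2.13 FPKM in spermatogonia, 3.67 FPKM in preleptotene, 4.09, 2.45, 4.54 and 3.85 FPKM in leptotene and 2.09, 0.690, 3.18 and 1.01 FPKM in pachytene. The stages overlapped, and the difference between pachytene and leptotene of -0.91 ± 0.36 missed the threshold (adjusted p = 0.0758). It passed without leptotene library 2, at -1.0 ± 0.32 (adjusted p = 0.0347). The 3 Aurora kinases were thus ordered, by mean FPKM in total RNA, Aurka, Aurkb, Aurkc in spermatogonia and leptotene and Aurka, Aurkc, Aurkb in pachytene. In pachytene Aurkc and Aurkb overlapped, with 3.70 ± 0.404 and 1.74 ± 1.26 FPKM (SD, n = 2 animals).

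Cdc25c, a phosphatase that removes inhibitory phosphates from Cdk1, was lower in pachytene than in spermatogonia. Total RNA had 2.53, 1.89 and 2.10 FPKM in spermatogonia, 1.54 FPKM in preleptotene, 1.32, 0, 2.17 and 1.41 FPKM in leptotene, and 0.0818, 0.454, 0.525 and 0.189 FPKM in pachytene. Pachytene and spermatogonia did not overlap, and the value of 0 was in leptotene library 2. No pachytene library reached 1 FPKM, so Cdc25c passed the filter on low values only through earlier stages, where it is high. Its differences and calls are therefore given as a description. The difference from spermatogonia was -1.28 ± 0.36 (adjusted p = 0.0156). The difference from leptotene was -0.80 ± 0.33 (adjusted p = 0.0789), and -1.01 ± 0.21 (adjusted p = 0.00534) without leptotene library 2. An opposite-strand gene, Gm3550, overlaps Cdc25c exons and stood at 0.102 to 0.236 FPKM in pachytene total RNA, in the range of Cdc25c there.

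Cdk1, Plk1 and Cdc25a were not called in total RNA in any comparison. Cdk1, the master kinase of division, was low throughout, from 1.15 to 1.54 FPKM in spermatogonia, 1.61 FPKM in preleptotene, 1.31 to 2.49 FPKM in leptotene and 0.936, 3.53, 1.71 and 3.21 FPKM in pachytene. Its pachytene libraries spread over the whole range of the earlier stages, and the difference from leptotene was 0.20 ± 0.35 (adjusted p = 0.666). Plk1, the Polo-like kinase of spindle and centrosome, had 3.08, 1.88 and 12.3 FPKM in spermatogonia, 3.86 FPKM in preleptotene, 4.03, 3.19, 14.0 and 6.51 FPKM in leptotene and 2.04, 3.14, 4.34 and 2.05 FPKM in pachytene. Spermatogonia library 3 and leptotene library 3 were far above the others, and they came from different animals. A pseudogene, Plk-ps1, shares 93.5% identity with Plk1 over 1813 bases and was at 6.13 to 9.69 FPKM in pachytene total RNA, above Plk1, so part of the reads may be misplaced. The opposite-strand gene Gm44985 overlaps Plk1 exons and was at 0.168 to 1.07 FPKM there. Cdc25a, a phosphatase that activates cyclin-dependent kinases also at entry into DNA replication, had 3.54, 0.895 and 5.38 FPKM in spermatogonia, 5.86 FPKM in preleptotene, 1.75, 0.461, 6.37 and 5.31 FPKM in leptotene and 0.402, 1.47, 1.73 and 1.39 FPKM in pachytene. Leptotene libraries 1 and 2 lay near pachytene and libraries 3 and 4 near preleptotene. The pachytene minus leptotene difference was -1.06 ± 0.58 (adjusted p = 0.175).

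Leaving out leptotene library 1, which leaves library 2 as the only leptotene library of its animal, removed all 4 calls from leptotene to pachytene in total RNA. The adjusted p-values were then 0.216 for Aurka, 0.214 for Nek2, 0.189 for Birc5 and 0.0752 for Aurkc. Without library 2 the 4 calls stood and Aurkb and Cdc25c were called lower, with 28.8% of all genes higher and 24.7% lower. Aurkb also passed without pachytene library 3 (-1.02, adjusted p = 0.0403), the Birc5 call was lost without leptotene library 4 (1.08, adjusted p = 0.0591), and the Aurka call was lost with no filter on low values (adjusted p = 0.0752). Against spermatogonia the pachytene calls of Aurka and Cdc25c were lost without spermatogonia library 3 (adjusted p = 0.0604 and 0.0655) and without leptotene library 1 (adjusted p = 0.0640 and 0.0955), which enters through the shared estimate of spread. The Cdkn3 rise into leptotene was lost without spermatogonia library 3 (2.49, adjusted p = 0.0533) and under spike-in scaling (1.98, adjusted p = 0.0521).

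**Figure D2:**
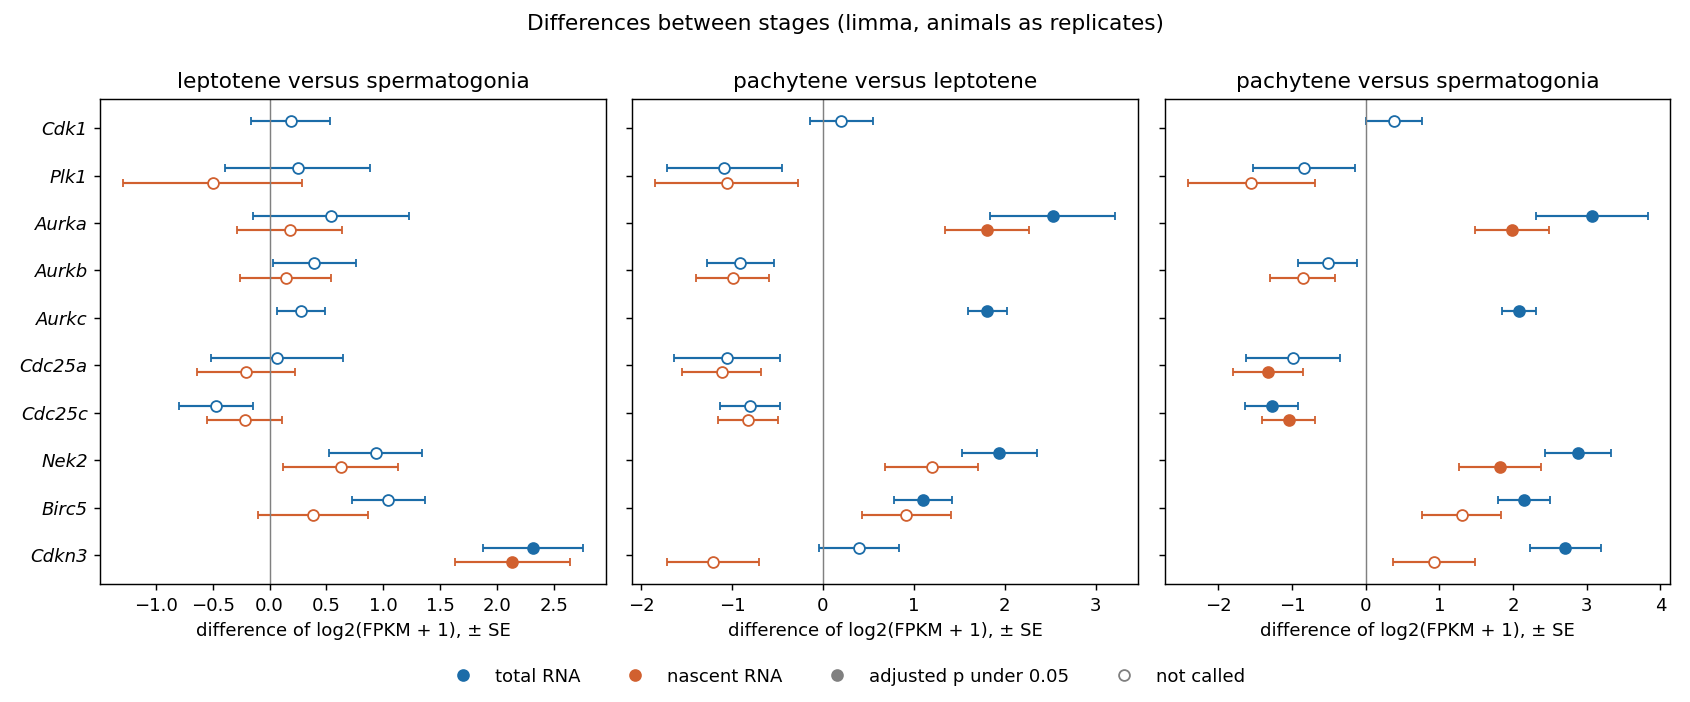
Difference between stages for each gene on the log2(FPKM + 1) scale with its standard error from limma, total RNA in blue and nascent RNA in orange, filled where the adjusted p was under 0.05. In pachytene versus leptotene the filled points are Aurka, Aurkc, Nek2 and Birc5 in total RNA and Aurka in nascent RNA, and Cdk1 and Aurkc have no nascent points because they were under the filter on low values.

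Nascent RNA shows which of these genes were being transcribed during the 3 hours of labelling. Of the 10 genes 8 passed the filter on low values (1 FPKM in at least 2 libraries), and Cdk1 and Aurkc did not. Aurka alone was called higher in pachytene than in leptotene, beside 15.8% of all genes tested, and none of the 8 was called lower, beside 15.4%. Against spermatogonia Aurka and Nek2 were higher (15.6% of all genes) and Cdc25a and Cdc25c lower (27.9%). Nascent Cdc25a and Cdc25c were tested only because of their levels in earlier stages. Cdkn3 alone was higher in leptotene than in spermatogonia, beside 0.696% of all genes, and none of the 8 was lower, beside 9.90%.

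Nascent Aurka was 1.14, 1.59 and 4.64 FPKM in spermatogonia, 1.30 FPKM in preleptotene, 1.47, 8.43, 3.51 and 2.20 FPKM in leptotene, and 15.0, 11.9, 8.08 and 21.8 FPKM in pachytene. Pachytene library 3 was just under leptotene library 2, and the other pachytene libraries were above all others. The rise from leptotene was 1.81 ± 0.46 (adjusted p = 0.0130) and 1.93 ± 0.88 (adjusted p = 0.111) with the animal as a block. That call was also lost without leptotene library 1 (1.48, adjusted p = 0.133). Nascent Nek2 was 6.83, 8.60 and 20.6 FPKM in spermatogonia, 19.6 FPKM in preleptotene, 18.3, 29.9, 17.2 and 20.1 FPKM in leptotene and 43.3, 47.6, 25.8 and 93.3 FPKM in pachytene. It rose from spermatogonia by 1.82 ± 0.56 (adjusted p = 0.0206), and the block removed that call (2.62 ± 1.33, adjusted p = 0.122), as did leaving out pachytene library 1 (1.64, adjusted p = 0.0551). Without pachytene library 3 Nek2 was called higher than in leptotene (1.38, adjusted p = 0.0441). The Aurka call against spermatogonia was lost with the block (2.04, adjusted p = 0.143). The highest pachytene value of both genes was in library 4, which had the lowest spike-in share of its stage, 13.1% against 64.9 to 76.5% in the other 3.

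Scaling each nascent library by its median ratio over genes, which takes the spike-in share out, gave larger rises from leptotene to pachytene. Aurka then rose by 2.17 ± 0.37 (adjusted p = 0.00277), Nek2 by 1.61 ± 0.36 (adjusted p = 0.00903) and Birc5 by 1.31 ± 0.36 (adjusted p = 0.0211), with 22.7% of all genes called higher. The same 3 genes rose against spermatogonia under that scaling, with 23.5% of all genes called higher. Nascent Birc5 as deposited was 1.89, 1.98 and 4.78 FPKM in spermatogonia, 6.07 FPKM in preleptotene, 2.87, 1.65, 5.88 and 6.01 FPKM in leptotene and 11.1, 8.06, 5.14 and 14.8 FPKM in pachytene. Pachytene library 3 was within the leptotene range, and without it the Birc5 rise from spermatogonia was called (1.55, adjusted p = 0.0309). Scaling by the spike-ins instead brought the Aurka rise from leptotene to 0.42, Nek2 to -0.41 and Birc5 to -0.58, with no call, so the direction for Nek2 and Birc5 depends on the scaling.

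In FPKM as deposited, Cdkn3 differed in order between the assays. Its nascent RNA was 0.573, 0.808 and 1.39 FPKM in spermatogonia, 13.8 FPKM in preleptotene, 11.6, 4.29, 4.09 and 15.5 FPKM in leptotene, and 3.01, 1.38, 4.16 and 3.29 FPKM in pachytene. As deposited, nascent levels were thus highest in preleptotene and in leptotene libraries 1 and 4. Total RNA instead stayed between 16.6 and 23.1 FPKM in pachytene. Under median-ratio scaling those nascent libraries were still highest, at 10.4, 10.8 and 13.4. Pachytene library 3 at 7.2 then lay above leptotene libraries 2 and 3 at 5.39 and 3.49. In the authors' 5S-corrected signal preleptotene had 6.45, and leptotene libraries 1 and 4 had 6.81 and 6.82. Pachytene libraries 1, 2 and 4 had 5.29 to 7.47 there, so the nascent order depends on the scaling. In FPKM as deposited, the nascent rise from spermatogonia to leptotene was 2.13 ± 0.51 (adjusted p = 0.0192). The nascent difference between pachytene and leptotene of -1.21 ± 0.51 missed the threshold (adjusted p = 0.0908), and passed without leptotene library 3 (-1.61, adjusted p = 0.0232). The rise into leptotene was lost without spermatogonia library 3 (2.39, adjusted p = 0.102) and without leptotene library 1 (1.92, adjusted p = 0.0839).

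In FPKM as deposited, the nascent RNA of the Cdc25 pair was lower in pachytene than in spermatogonia. Cdc25a had 1.86, 2.28 and 4.26 FPKM in spermatogonia, 2.24 FPKM in preleptotene, 1.91, 2.11, 4.26 and 1.67 FPKM in leptotene and 0.975, 0.536, 0.856 and 0.189 FPKM in pachytene. As deposited, all pachytene libraries were under all others and under 1 FPKM, so Cdc25a passed the filter only through earlier stages. Its difference from spermatogonia, -1.32 ± 0.47 (adjusted p = 0.0426), is therefore given as a description. Under median-ratio scaling it was -0.88 ± 0.42 (adjusted p = 0.116), and pachytene library 3 at 1.48 lay above leptotene library 4 at 1.45. In the authors' 5S-corrected signal pachytene libraries 1, 2 and 4 had 1.72, 2.72 and 0.429. Leptotene libraries 1 and 4 had 1.12 and 0.734 there, within that range, and spermatogonia had 4.02 to 7.27, above it. Cdc25c had 0.879, 0.978 and 1.38 FPKM in spermatogonia, 0.911 FPKM in preleptotene, 0.283, 0.189, 1.68 and 0.897 FPKM in leptotene and 0.0905, 0.0777, 0 and 0 FPKM in pachytene, again with all pachytene libraries lowest. Only spermatogonia library 3 and leptotene library 3 reached 1 FPKM, so Cdc25c passed the filter only through earlier stages, where it is high. Its difference from spermatogonia of -1.04 ± 0.36 (adjusted p = 0.0368) is therefore given as a description. Without either of these libraries, or under median-ratio scaling, Cdc25c was under the filter and not tested. Without leptotene library 1 neither gene was called (adjusted p = 0.0799 and 0.0673), and Cdc25a was not called without spermatogonia library 2 (adjusted p = 0.0577) or 3 (-0.93, adjusted p = 0.298).

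Nascent Plk1 was 2.08, 0.905 and 12.5 FPKM in spermatogonia, 0.765 FPKM in preleptotene, 1.17, 1.49, 10.6 and 1.48 FPKM in leptotene and 0.997, 1.25, 0.545 and 1.08 FPKM in pachytene. As in total RNA, spermatogonia library 3 and leptotene library 3 stood out. The difference from leptotene to pachytene was -1.06 ± 0.79 (adjusted p = 0.323) without the block and -2.42 (adjusted p = 0.0242) with it. The difference from spermatogonia was -1.55 ± 0.86 (adjusted p = 0.172) without the block and -3.68 (adjusted p = 0.00241) with it. Nascent Aurkb had 1.26 to 3.23 FPKM in spermatogonia, 1.55 FPKM in preleptotene, 1.35 to 4.25 FPKM in leptotene and 0.174 to 1.19 FPKM in pachytene. As deposited, its pachytene libraries lay under every earlier library, at a difference from leptotene of -0.99 ± 0.40 (adjusted p = 0.0820). Under median-ratio scaling pachytene library 1 at 1.21 lay above the preleptotene library at 1.17. The Aurkb difference from leptotene passed without pachytene library 4 (-1.22, adjusted p = 0.0427). That from spermatogonia passed without leptotene library 3 (-0.85, adjusted p = 0.0415). Nascent Cdk1 stayed between 0.128 and 1.17 FPKM in all 12 libraries. Nascent Aurkc was listed at 0 in 7 of 12 libraries and reached 1.24 FPKM in pachytene library 3 only.

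Total and nascent RNA were then set against each other, although their difference alone does not show whether messages outlast their synthesis. Within pachytene the total minus nascent difference of log2(FPKM + 1) was 2.47 for Cdkn3, above 98.5% of the 19955 genes compared, 1.75 for Aurkc (93.7%), 1.55 for Aurka (91.1%) and 1.23 for Nek2 (84.8%). The median over all genes was 0.40. Cdk1 at 0.98, Plk1 at 0.96, Birc5 at 0.88, Aurkb at 0.66 and Cdc25a at 0.44 were also above that median, and Cdc25c at 0.32 was under it. These differences mix the 2 assays, which come from different animals by the labels and from different library preparations, so only their change between stages was tested. In pachytene the spike-in share was 2.49 to 3.09% in total RNA and 13.1 to 76.5% in nascent RNA, which lowers every nascent FPKM. That share also differed between stages. Genes near 0 FPKM in both assays have differences near 0 on this scale, so the percentages of genes below also depend on level.

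**Figure D3:**
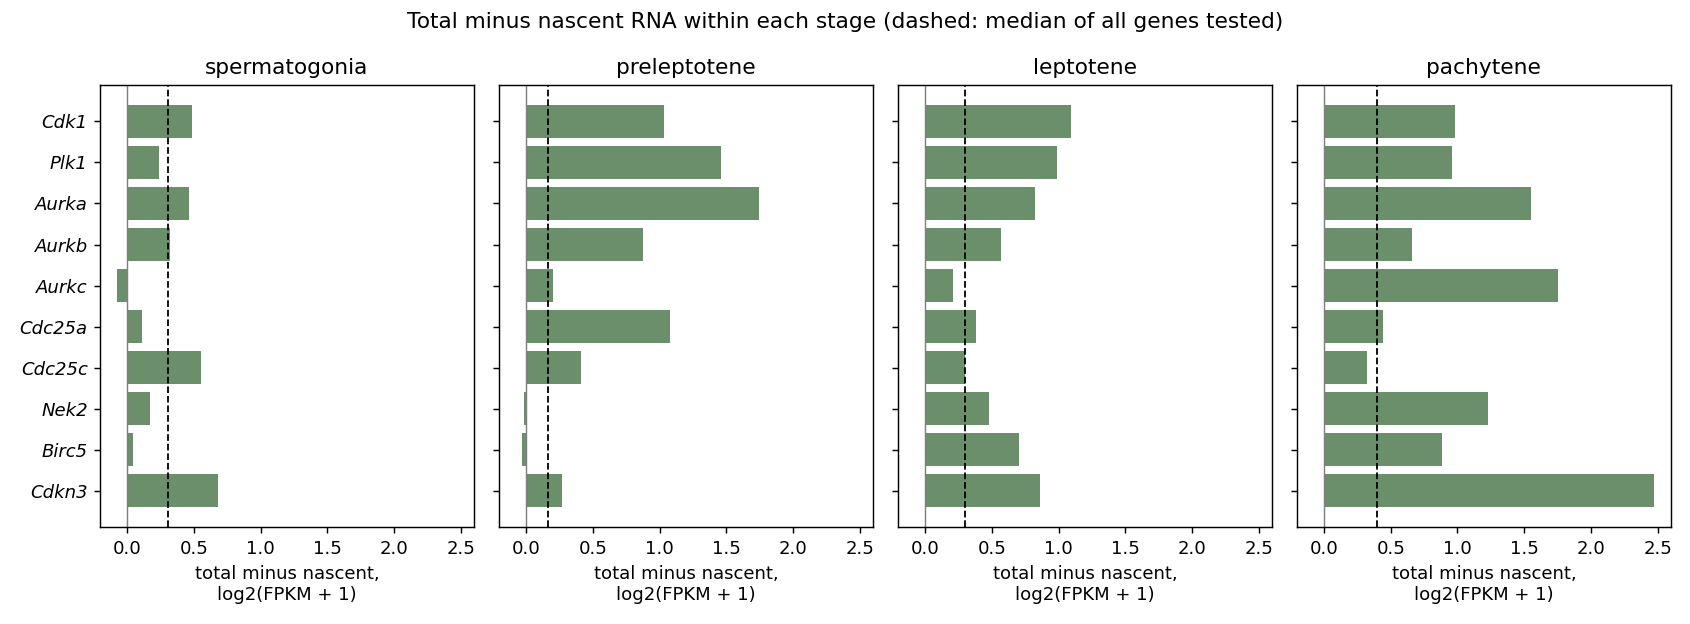
Total minus nascent RNA of each gene within each stage, as the difference of the animal means of log2(FPKM + 1), with the median of all genes tested as a dashed line. In pachytene the longest bars are Cdkn3 at 2.47, Aurkc at 1.75 and Aurka at 1.55, against a median of 0.40. The spike-in share was not taken out of these values.

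The change of total over nascent RNA passed the threshold only for Aurkc, from spermatogonia to pachytene (limma interaction, 1.82 ± 0.34, adjusted p = 0.0399). Aurkc passed the filter only through its pachytene libraries and was under the filter in nascent RNA, so this value restates its level in total RNA and is a description. In that comparison 0.0902% of all genes tested were called higher and 0.170% lower. From leptotene to pachytene its gain was 1.54 ± 0.31 (adjusted p = 0.0973), and 1.45 ± 0.28 (adjusted p = 0.0171) without leptotene library 2 in both assays, where 3.06% of all genes were higher. The first call was lost with the animal as a block (2.24 ± 0.56, adjusted p = 0.801), under median-ratio scaling (1.66, adjusted p = 0.103) and with a pseudocount of 0.1 (4.11, adjusted p = 0.414). It was also lost without any 1 of 9 libraries, with adjusted p-values up to 0.196: total spermatogonia library 1, total leptotene libraries 1 and 4, total pachytene library 3, nascent spermatogonia library 3, nascent leptotene libraries 1, 3 and 4, and nascent pachytene library 1. The gain from leptotene passed without total leptotene library 2 (adjusted p = 0.0180), total pachytene library 1 (0.0395) or nascent pachytene library 3 (0.0235). Cdkn3 had a gain of 1.60 ± 0.71 from leptotene to pachytene and 1.79 ± 0.77 from spermatogonia, neither called (adjusted p = 0.570 and 0.356). For Aurka the gain from leptotene to pachytene was 0.72 ± 0.88 (adjusted p = 0.903), for Nek2 0.75 ± 0.67 (adjusted p = 0.847) and for Birc5 0.18 ± 0.59 (adjusted p = 0.975). None of the 10 genes was called from spermatogonia to leptotene (0.0100% of all genes higher and 0.0902% lower) or from leptotene to pachytene (0.0601% and 0.0150%). At an unadjusted p under 0.05 the leptotene to pachytene comparison had Aurkc and Cdkn3, and the other had none. The excess of total over nascent RNA in pachytene was therefore not shown to differ from that of earlier stages for any of the 10 genes, since the Aurkc call is a description.

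In lists of other genes of the same machinery some genes rose and others fell in total RNA from leptotene to pachytene, beside the 22.4% higher and 17.7% lower of all genes tested. The lists were compiled from textbook roles, without the 10 genes themselves, but with earlier results of these data known. Their counts beside all genes are therefore a description. Among 20 tested genes of the CDK1 switch (cyclins, CDK inhibitors, kinases and chaperones around CDK1) 5 rose and 7 fell, with a median difference of -0.97 against -0.07 over all genes tested. Hspa2, a testis chaperone needed for CDK1 to bind cyclin B1, rose by 3.73 ± 0.62 (adjusted p = 0.00350), from a leptotene median of 64.6 FPKM to a pachytene median of 1261 FPKM over 4 libraries each. Pkmyt1, a kinase that inhibits CDK1, rose by 2.66 ± 0.47 (adjusted p = 0.00397). Cks2, a small CDK-binding subunit, rose by 2.47 ± 0.40 (adjusted p = 0.00336). Ccnb3, an early meiotic cyclin, fell by 3.37 on the log2 scale (SE 0.54, adjusted p = 0.00337). Thus an activator and an inhibitor of CDK1 rose together. The other 2 that rose, named after their values were seen, were the cyclins Ccna1 and Ccnb2, with pachytene medians of 9.53 and 42.8 FPKM.

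Among 15 tested Aurora and Polo partners 2 rose and 3 fell, with a median of -0.24. Haspin, the histone kinase that places the chromosomal passenger complex, rose by 3.41 ± 0.61 (adjusted p = 0.00417), from a leptotene median of 14.0 FPKM to a pachytene median of 224 FPKM. Bora, a cofactor of Aurora A in activating Polo-like kinase, rose by 1.34 ± 0.35 (adjusted p = 0.0173). Ajuba, an activator of Aurora A, fell by 2.22 (SE 0.49, adjusted p = 0.00859). Sgo1, a protector of centromeric cohesion, fell by 1.30 (SE 0.35, adjusted p = 0.0190). The third to fall was Plk4, named after its value was seen. The other 10 partners were not called, and both shares are near or under those of all genes.

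Of 19 tested genes of the spindle checkpoint and anaphase 6 rose and 4 fell, with a median of 0.50. Fbxo43 and Fbxo5 encode the related inhibitors EMI2 and EMI1 of the anaphase-promoting complex and moved in opposite directions. Fbxo43 rose by 3.28 ± 0.59 (adjusted p = 0.00415) and Fbxo5 fell by 3.08 (SE 0.45, adjusted p = 0.00315). Pttg1, which encodes securin, rose by 2.65 ± 0.33 (adjusted p = 0.00312). Spc25, a kinetochore subunit, fell by 2.27 (SE 0.35, adjusted p = 0.00319).

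The other NEK kinases did not follow Nek2 as a family. Of 9 tested 3 rose and 2 fell, with Nek11 up by 1.62 ± 0.33 (adjusted p = 0.00665) and Nek10 by 1.40 ± 0.26 (adjusted p = 0.00489). Their pachytene medians were 4.06 and 2.36 FPKM, far under the 109.7 to 116 FPKM of Nek2. Nek3 fell by 1.29 (SE 0.32, adjusted p = 0.0131) and Nek7 by 1.13 (SE 0.35, adjusted p = 0.0328). Among 17 tested subunits of phosphatases 2 rose and 8 fell, with a median of -0.40. Ppp1ca, a catalytic subunit of protein phosphatase PP1, fell by 4.14 (SE 0.47, adjusted p = 0.00312), whereas Ppp1cc, the PP1 subunit whose splice form is abundant in testis, rose by 2.08 ± 0.73 (adjusted p = 0.0488). Ppp6c fell by 2.13 (SE 0.40, adjusted p = 0.00470) and Ppp1cb by 1.87 (SE 0.59, adjusted p = 0.0331). Leptotene library 2 was the highest leptotene library for Hspa2 at 1010.4 FPKM and for Haspin at 208 FPKM, as for Aurka and Nek2.

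**Figure D4:**
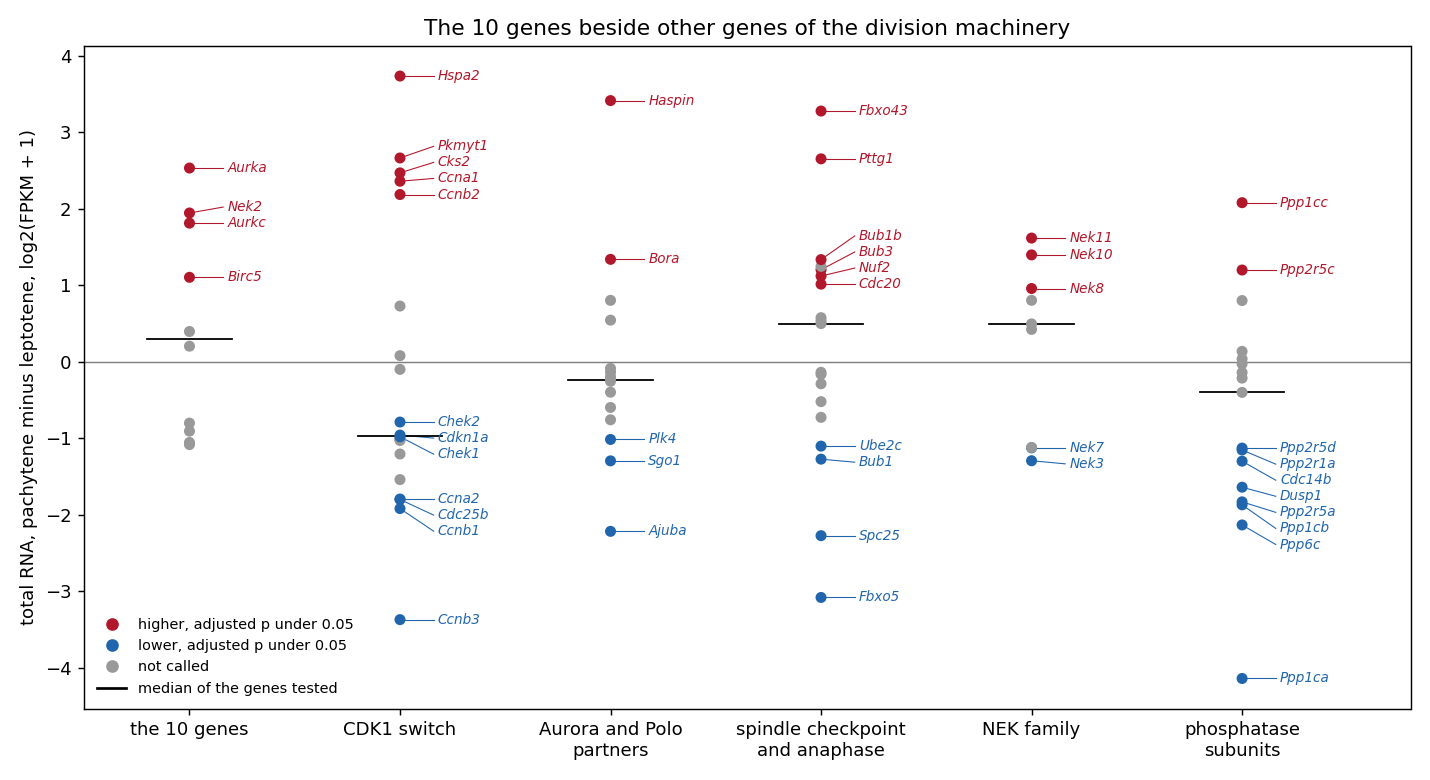
Total RNA difference between pachytene and leptotene on the log2(FPKM + 1) scale for the 10 genes and for 5 lists of related genes, each point a gene, red if called higher and blue if called lower, with the median of each list as a bar. The CDK1 switch holds both Hspa2 at 3.73 and Ccnb3 at -3.37, and its median is -0.97.

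Across the 12 total RNA libraries Aurka and Nek2 were the most alike pair of the 10, with Pearson r = 0.95 of log2(FPKM + 1), and each was opposed to Cdc25c with r = -0.94. These libraries share stages and animals, so r describes the stage pattern and is given with no test. Among 5237 genes with a mean of at least 5 FPKM, the genes most like Nek2 were Cep63 (r = 0.998), Nup50 and Ccdc92 (0.996 each). Those most like Aurka were Lrrc51 (0.991) and Zfp438 (0.989). Cdkn3 was most like Pomt2 (0.976), Ccdc155 (0.970) and H1fx (0.968). Birc5 was most like Cops5 (0.946), Aurkc most like Tmem120a (0.941) and Aurkb most like Foxm1 (0.918). Cdc25c was most like Snord35a and Ndel1 (0.964 each). Likeness was lower for Cdc25a with Nsun5 (0.857), Cdk1 with Afdn (0.849) and Plk1 with Snrpd1 (0.796).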

How the data were processed

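RNA was measured in 12 total and 12 nascent libraries. The authors deposited FPKM values per gene for both assays, made with STAR 2.5.2a and StringTie (version not given in the sources used here) on mm10, per the submitters' processing notes. Ribosomal RNA was removed before library preparation in the total assay only, and spike-in RNA was added after extraction, per the labels' protocols. Another table that the authors deposited holds 5S-corrected nascent signal for 9 libraries and 31272 rows. Within each library it equals the nascent FPKM multiplied by 1 constant, and how the constants were made is not stated. FPKM are not counts, so no count model was used.

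Libraries of 1 animal and stage were averaged as log2(FPKM + 1) and all stages of an assay were fitted together with limma 3.58.1 (R 4.3.3, eBayes with trend, two-sided). Rows at 1 FPKM or more in at least 2 libraries were tested, 19202 in total RNA, 16375 in nascent RNA and 19955 for the interaction of assay and stage. P-values were adjusted by Benjamini-Hochberg over all tested rows, with a threshold of 0.05. The 92 spike-in rows were left out. With 2 or 3 animals a stage and 1 preleptotene library, the spread is an estimate over all stages, and the SE printed with each difference comes from it. Individuals are taken from the labels, and animals that gave several stages were entered as a replicate block in an alternative. A pairing of total and nascent libraries was not entered in any fit. The deviations of the same animal in a pair of stages correlated at 0.084, 0.08 and 0.015 in total RNA and 0.054, -0.16 and -0.119 in nascent RNA. The fits were tested on simulated data. The alternatives were a pseudocount of 0.1, no filter on level, median-ratio and spike-in scaling, the animal as a block, the 5S-corrected table, and leaving out each library. Leaving out leptotene library 2 in both assays at once was chosen after seeing the data.

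All 10 genes are described. Of each related list, up to 4 called genes with the largest change from leptotene to pachytene in total RNA are named, and of likeness up to 3 genes per member. A result of that rule is not reported here. The members and lists were chosen with earlier results of these data known. Promoter windows are from RefSeq, and copies were sought with blastn 2.17.0 in the annotated transcripts.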

Additional observations from a re-analysis of the deposited data

Results flagged for a closer look

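In 40 groups of 4 libraries (each of the 10 genes in leptotene and pachytene, in both assays), 4 had 1 library whose gap to its nearest neighbour was a larger part of the range of the group than Dixon's 95% critical value for 4 samples allows. Chance alone gives about 1 in 20 such groups if the 4 values are independent and normally distributed. Some libraries of each group share an animal, so that rate is only a rough guide here. In total RNA Nek2 was 108 FPKM in leptotene library 2, with a gap of 0.985 of the range. In nascent RNA Plk1 was 10.6 FPKM in leptotene library 3, with a gap of 0.966, and Aurkb was 4.25 FPKM in the same library, with a gap of 0.886. Nascent Cdk1 was 1.17 FPKM in pachytene library 4, with a gap of 0.841.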

How the results depend on the processing

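Numbers of genes called changed with scaling mainly in nascent RNA, and the cause was not tested. All counts are of the 10 genes called by limma, and all values are log2 differences. Under spike-in scaling 0 were called higher in leptotene than in spermatogonia in total RNA and in nascent RNA, nascent pachytene calls were 0 higher than leptotene and 0 higher and 0 lower than spermatogonia, and 1 was higher for total over nascent RNA from leptotene to pachytene. With no filter on level, nascent calls were 0 higher from spermatogonia to leptotene, 0 higher from leptotene to pachytene, and 1 higher and 0 lower from spermatogonia to pachytene. Median-ratio scaling gave 3 higher in nascent RNA from leptotene to pachytene, 0 lower from spermatogonia to pachytene, and 0 higher for total over nascent RNA from spermatogonia to pachytene. The 5S-corrected table gave 0 higher and 2 lower (nascent, spermatogonia to leptotene), 3 higher (leptotene to pachytene) and 1 lower (spermatogonia to pachytene), and for total over nascent RNA 1 higher from leptotene and 0 higher from spermatogonia to pachytene. A pseudocount of 0.1 gave 3 lower in nascent RNA from leptotene to pachytene and 0 higher for total over nascent RNA from spermatogonia to pachytene. Without leptotene library 2 in both assays, 1 was higher for total over nascent RNA from leptotene to pachytene.

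With the animal as a replicate block, nascent calls were 0 higher and 1 lower from leptotene to pachytene and 0 higher from spermatogonia to pachytene, and 0 were higher for total over nascent RNA from spermatogonia to pachytene. From spermatogonia to leptotene the block turned total Plk1 to -0.20, total Cdc25a to -0.28 and nascent Aurkb to -0.20. Calls that the block changed stand beside their genes in the text above, and it changed no other call of these genes.

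Other signs that turned were these. From spermatogonia to leptotene, spike-in scaling gave -0.035 for total Cdk1, -0.085 for Plk1 and -0.19 for Cdc25a, and the 5S-corrected table gave -1.44 for nascent Aurka, -1.28 for Aurkb, -1.09 for Nek2 and -0.996 for Birc5. From leptotene to pachytene the 5S-corrected table gave 1.12 for nascent Plk1, 0.48 for Aurkb and 0.37 for Cdc25a, and spike-in scaling gave -0.41 for Nek2 and -0.58 for Birc5. From spermatogonia to pachytene spike-in scaling gave -0.087 for nascent Birc5 and -0.19 for Cdkn3. For total over nascent RNA from leptotene to pachytene, the 5S-corrected table gave -1.75 for Aurka, -1.67 for Nek2 and -2.015 for Birc5, and median-ratio scaling gave -0.22 for Birc5.

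Leaving out 1 library at a time, total RNA calls ranged from 0 to 2 higher (spermatogonia to leptotene), 0 to 4 higher and 0 to 2 lower (leptotene to pachytene), and 4 to 5 higher and 0 to 1 lower (spermatogonia to pachytene). Nascent calls ranged from 0 to 1 higher, from 0 to 2 higher and 0 to 1 lower, and from 1 to 3 higher and 0 to 2 lower in the same order. For total over nascent RNA they ranged from 0 to 1 higher from leptotene and from spermatogonia to pachytene. Signs that turned in these fits were those of total Plk1 (-0.20 to 1.23) and Cdc25a (-0.28 to 0.63) from spermatogonia to leptotene, Cdkn3 (-0.020 to 0.67) from leptotene to pachytene and Plk1 (-1.04 to 0.14) from spermatogonia to pachytene. They were also those of nascent Plk1 (-1.26 to 0.74), Aurka (-0.15 to 0.81), Aurkb (-0.20 to 0.37) and Cdc25a (-0.50 to 0.18) from spermatogonia to leptotene, and of Aurka (-0.059 to 1.12) and Birc5 (-0.061 to 0.43) in total over nascent RNA from leptotene to pachytene. None of the differences that turned in these fits was called. Under the other settings 141 of 150 total RNA values of single genes and 99 of 141 nascent ones kept their direction and side of the threshold. Counts of genes called are not among these. Nascent Cdk1 and Aurkc were not tested, since under 2 libraries reached 1 FPKM. Nascent Cdc25c was likewise not tested under median-ratio scaling or without nascent spermatogonia library 3 or leptotene library 3.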
